A study of Mus musculus with 69 samples.

Results

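Desmosome genes encode the spot junctions that rivet keratinocytes to each other. Mouse dorsal skin was profiled over a time course after TPA, a tumour-promoting phorbol ester that inflames and thickens the epidermis. Members were found by symbol among probe sets that carry 1 symbol, and where a gene had several the one with the highest mean level over the arrays was used. Of 10 genes listed, 8 could be measured this way, of 18820 genes in all: the cadherins Dsg2, Dsg3, Dsc2 and Dsc3, and the plaque genes Dsp, Jup, Pkp1 and Pkp3. Dsg1a was present only on a probe set shared with Dsg1b and Dsg1c, and Dsc1 is not named in the probe annotation used here.

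Values came from 66 arrays assigned to a strain and a time. The treated and untreated skins were from FVB/N mice (27 arrays, labelled FVB), from the cross of FVB/N with Spret/Ei (25 arrays, labelled F1) and from Spret/Ei mice (14 arrays, labelled SPR), all shaved 2 days before treatment at 8 weeks of age. FVB skin was sampled at 2, 6, 12, 24, 48, 72, 168 and 1008 h with 3 arrays at each time, and 0 h skin, labelled untreated, was the reference. F1 skin had 2 arrays at 4, 6, 12, 24 and 72 h, 3 at 48 h, 6 at 1008 h and 4 at 0 h. SPR skin had 2 arrays at 4, 12, 24, 48, 1008 and 0 h. Single arrays at 2 and 168 h in F1 and at 2 and 6 h in SPR are given as values without a test. No arrays of vehicle-treated skin are among the samples, so acetone, shaving and, at 1008 h, age are not separated from TPA. The protocol gives a single dose of TPA in acetone, while the design description mentions replicate exposures. The samples are whole skin, in which fewer cells of a type and less RNA per cell cannot be told apart.

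In a desmosome, the cadherins called desmogleins and desmocollins span the membrane and bind those of the next cell. Plakoglobin (Jup) and the plakophilins bind the cadherin tails, and desmoplakin (Dsp) links them to keratin filaments. In epidermis Dsg3 and Dsc3 are strongest in basal cells, Dsg1 and Dsc1 in the upper layers, while Dsg2 and Dsc2 are more widely expressed in simple and stratified epithelia.

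Values are RMA log2 expression, so a difference of 1 is a doubling, and ± gives the fitted standard error unless SD is written. Changes with a limma p under 0.05, after Benjamini-Hochberg adjustment over all 18820 genes, are referred to as called. Nothing ties the arrays to separate mice, so p-values may measure only the spread between arrays. A pair of arrays had a narrow range of values: SPR 12 h replicate 1, with an interquartile range of 1.62, and F1 72 h replicate 2, with 2.47, against 3.32 to 3.72 in the other arrays. They widen the spread of many genes, and results are given with and without them. Marker scores average, over the genes of a set, each log2 value minus that gene's mean over the 66 arrays. In the FVB untreated skin, averaged liver markers were higher in replicates 2 and 3 than in replicate 1. Averaged basal keratinocyte markers ran from -0.09 to 0.37 log2 in the 3 untreated arrays. All FVB arrays are labelled batch 1 and all others batch 2 or 3, so FVB levels were not compared with F1 or SPR levels.

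Dsc2 rose and Dsg2 fell in the first hours after TPA in FVB and F1 skin, Dsg3 rose in FVB skin, and of the plaque genes Pkp3 alone was called in these strains with all arrays and the probe set of highest mean. At 6 h in FVB skin 2 of the 8 genes rose and 1 fell, against 12.1% of all genes called higher and 12.6% called lower. At 12 h 1 rose and 1 fell, against 11.6% and 11% of all genes (22.7% together). At 1008 h 2 rose and 0 fell, against 8.17% and 9.76% (17.9% together). No gene of the 8 was called at 2, 24, 48, 72 or 168 h, when 14.4%, 13.5%, 13.3%, 3.3% and 0.468% of all genes were called in either direction. The shares called higher at those times were 6.52%, 6.11%, 6.93%, 1.47% and 0.308%, and those called lower were 7.86%, 7.36%, 6.34%, 1.84% and 0.159%. In F1 skin 20.6%, 19%, 9.08%, 2.72%, 2.12%, 3.93% and 1.67% of all genes were called at 4, 6, 12, 24, 48, 72 and 1008 h. At 48 h, when 1.42% were called higher, and at 1008 h no member was called in F1, and at 72 h 0.361% of all genes and no member were called higher. In all, 5 of 64 gene-time pairs in FVB were called higher and 2 lower, and without the 2 narrow arrays 13 were called higher and 4 lower. In that fit 24.7%, 34.2%, 33.2%, 25.3%, 25.9%, 14.2%, 6.75% and 29.1% of all genes were called over the 8 FVB times. With so few genes these shares are a description of the members.

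**Figure D1:**
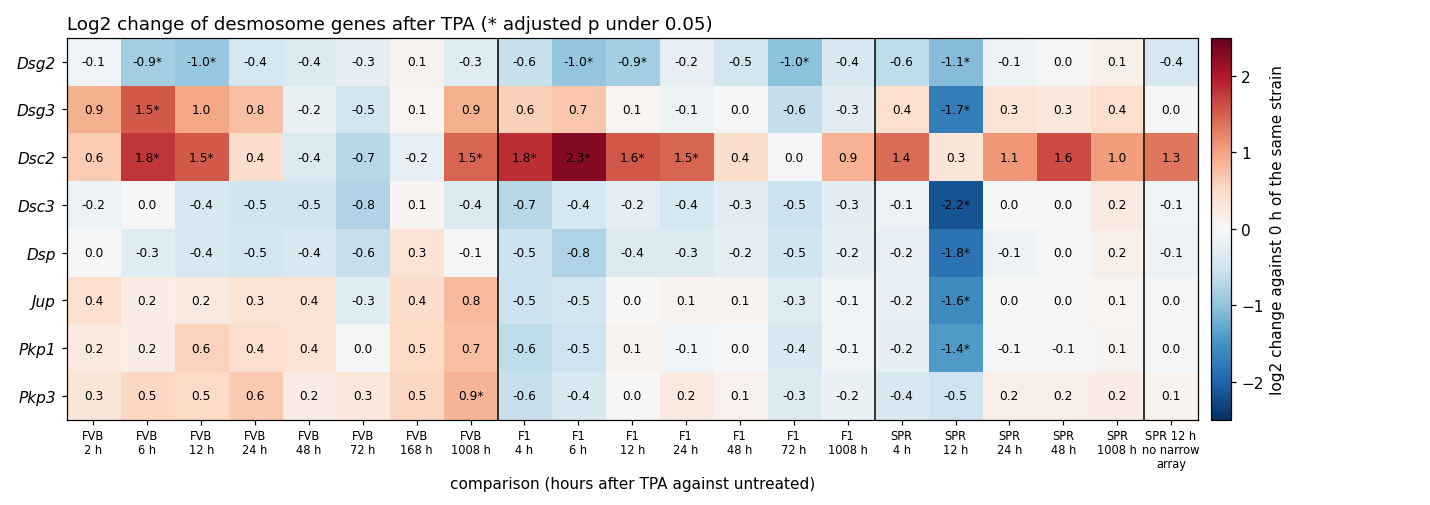
Log2 change of each gene at every time against 0 h of the same strain, with colour and number giving the size and a star marking an adjusted p under 0.05. Dsc2 is red early in all 3 strains, and the last column leaves out the narrow array from SPR 12 h. There Dsg3, Dsc3, Dsp, Jup and Pkp1 lie between -0.14 and 0, Dsg2 is at -0.41 and Dsc2 at 1.33.

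Dsc2, a desmocollin, had the largest change of the 8 genes in FVB and in F1 skin. In FVB skin its log2 values were 9.13, 9.03 and 8.25 at 6 h, against 6.94, 6.94 and 7.15 in untreated skin, and the groups did not overlap. The change was 1.79 ± 0.39, 3.45-fold (adjusted p = 0.000555). At 12 h its values were 8.53, 8.36 and 8.75, a change of 1.53 ± 0.39 (adjusted p = 0.00346). It averaged 6.64 ± 0.43 at 48 h and 6.30 ± 0.30 at 72 h, against 7.01 ± 0.12 in untreated skin (SD, n = 3 each). The 48 h values overlapped the untreated ones, and those at 72 h all lay below them without being called. At 1008 h its values were 8.33, 8.31 and 8.76, and the change was 1.45 ± 0.39 (adjusted p = 0.00731). Averaged hair follicle markers ran from 2.61 to 2.84 in the same 1008 h arrays and from -0.34 to -0.23 at 6 h, against -0.30 to -0.01 in untreated skin. Their part in the 1008 h result was not tested. By mean level the order in FVB was 6, 12 and 1008 h highest, with overlapping values, then 2, 24 and 0 h, whose values did not overlap each other, then 168, 48 and 72 h. The 0 h values overlapped those at 168 h, and neighbours overlapped below that. The F test over all times gave an adjusted p of 5.71e-07, against 50.9% of all genes called by it. Without FVB untreated replicates 2 and 3 the change at 6 h was 1.86 (adjusted p = 0.0248), while at 12 and 1008 h it was 1.60 and 1.52 and no longer called.

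In F1 skin Dsc2 was higher at 4, 6, 12 and 24 h. Its values were 8.38 and 8.04 at 4 h and 8.85 and 8.48 at 6 h, against 7.86, 5.95, 5.80 and 5.87 in untreated skin. The untreated replicate 1 stood 1.91 above the next highest, so 12 h and 24 h values, which ran from 7.41 to 8.26, overlapped it. That array had an averaged hair follicle marker score of 1.83, against -0.47 to -0.22 in the other untreated arrays. At 24 h the array with a Dsc2 value of 8.24 scored 1.69 and that with 7.41 scored -0.24, while the 4 and 6 h arrays ran from -1.30 to -0.71. The part of these markers was not tested, and without untreated replicate 1 the changes at 4, 6, 12 and 24 h were 2.33, 2.78, 2.03 and 1.94, all called. The changes were 1.84 ± 0.42 at 4 h (adjusted p = 0.000982) and 2.30 ± 0.42 at 6 h, 4.91-fold (adjusted p = 6.2e-05). They were 1.55 ± 0.42 at 12 h and 1.45 ± 0.42 at 24 h, with adjusted p of 0.0121 and 0.0448. Against these 1 of 8 genes rose at each of the 4 times, when 9.09%, 8.79%, 4.45% and 1.58% of all genes were called higher. The 12 h call was lost without untreated replicate 3 or either 12 h array (adjusted p up to 0.233), and the 24 h call without untreated replicate 2, 3 or 4 or either 24 h array (up to 0.772). The 24 h call was also lost with median centring and with F1 fitted alone. With a term for replicate number, the replicate block, both the 12 h and the 24 h calls were lost. Within batch 3 the changes at 4 and 6 h were 2.13 and 2.57 (adjusted p = 0.0018 and 0.000955), and within batch 2 they were 1.55 and 2.02 and not called (adjusted p = 0.585 and 0.37). At 24 h the change was 2.33 within batch 3 and 0.58 within batch 2. No F1 change of Dsc2, Dsg2 or Dsg3 at these times was called within batch 2.

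In SPR skin Dsc2 was not called at any single time in the fit with all arrays, while the F test over times called it (adjusted p = 0.0346, against 35.3% of all genes) and lost it without the narrow arrays (adjusted p = 0.0712). Its values were 8.09 and 8.46 at 4 h and 8.41 and 8.65 at 48 h, against 6.64 and 7.14 in untreated skin, and neither time overlapped it. The changes were 1.39 ± 0.48 at 4 h (adjusted p = 0.0712) and 1.64 ± 0.48 at 48 h (adjusted p = 0.162). Without the narrow arrays the 4 h change was called (adjusted p = 0.0257), when 12.7% of all genes were.

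**Figure D2:**
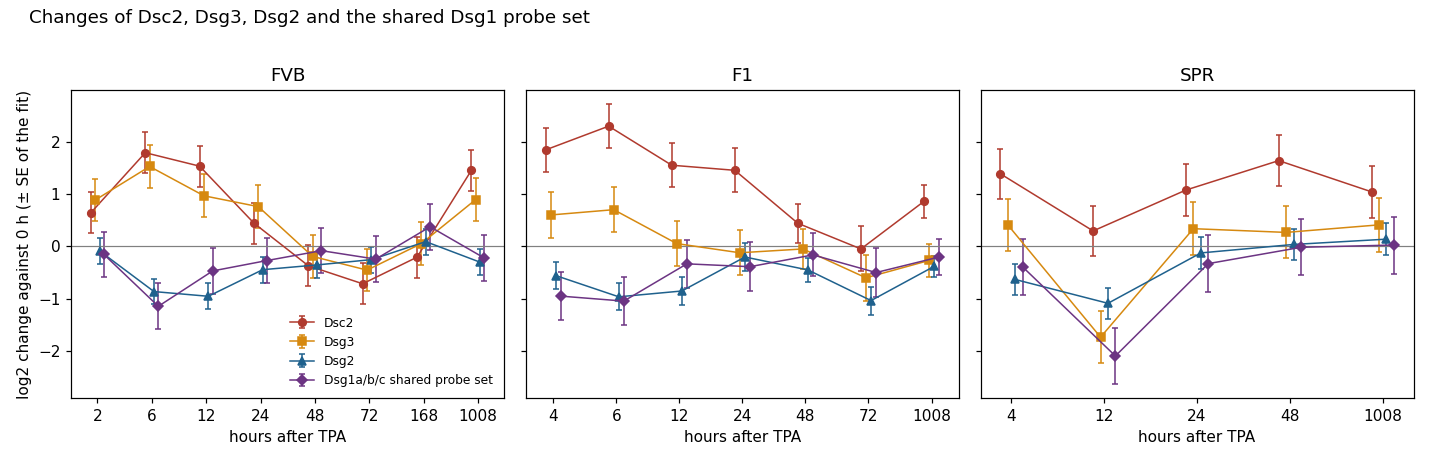
Log2 change against 0 h, with standard errors of the fit, of Dsc2, Dsg3, Dsg2 and the probe set shared by Dsg1a, Dsg1b and Dsg1c, in 3 strains. Dsc2 is above 0 early in all 3 panels and Dsg2 is below it, and the SPR 12 h points rest on 1 narrow array of 2.

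Dsg3, a desmoglein of basal keratinocytes, rose at 6 h in FVB skin. Its values were 11.35, 11.44 and 11.05 at 6 h, against 10.01, 9.78 and 9.46 in untreated skin, and the groups did not overlap. The change was 1.53 ± 0.41, 2.88-fold (adjusted p = 0.00412). At 2, 12 and 1008 h it differed by 0.89, 0.97 and 0.90, each above all untreated arrays, with adjusted p of 0.145, 0.0817 and 0.126. Without the narrow arrays those 3 changes and that at 24 h (0.76) were called. In F1 skin Dsg3 differed by 0.60 at 4 h and 0.70 at 6 h (adjusted p = 0.391 and 0.295), and within batch 3 these were called at 0.98 and 1.11 (adjusted p = 0.0264 and 0.017). Without FVB untreated replicates 2 and 3 the 6 h change was 1.26 and lost its call (adjusted p = 0.161).

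Dsg2, the desmoglein of simple epithelia and of the follicle and basal layers, fell at 6 and 12 h in both FVB and F1 skin. Its FVB values were 7.31, 7.01 and 6.72 at 6 h and 7.33, 6.79 and 6.65 at 12 h, against 8.03, 7.83 and 7.77 in untreated skin. No treated array at these times reached an untreated one. The change was -0.86 ± 0.25 at 6 h, 1.82-fold lower (adjusted p = 0.00723), and -0.95 ± 0.25 at 12 h (adjusted p = 0.00364). The 6 h call was lost without 6 h replicate 3 (adjusted p = 0.0519) and without FVB untreated replicates 2 and 3 (change -1.01, adjusted p = 0.0526). In F1 skin the values were 7.41 and 6.76 at 6 h and 7.25 and 7.14 at 12 h, against 7.99, 7.95, 8.11 and 8.13 in untreated skin. The F1 changes were -0.96 ± 0.26 at 6 h (adjusted p = 0.00615) and -0.85 ± 0.26 at 12 h (adjusted p = 0.0299). The first was lost without 6 h replicate 2 (adjusted p = 0.387), and the second without untreated replicate 2, 3 or 4 or either 12 h array (up to 0.294) and with median centring (-0.73, adjusted p = 0.0928). The F test over times called Dsg2 in FVB (adjusted p = 0.00264) and in F1 (adjusted p = 0.0121), against 26.7% of all genes in F1. Of 8 genes, 1 fell at each of these times, when 10.2% and 4.63% of all genes were called lower. The F1 72 h call of Dsg2, -1.03 (adjusted p = 0.0298), rests on the narrow array, without which the change was -0.67 with 1 array left and an adjusted p of 1. At that time 3.57% of all genes were called lower.

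**Figure D3:**
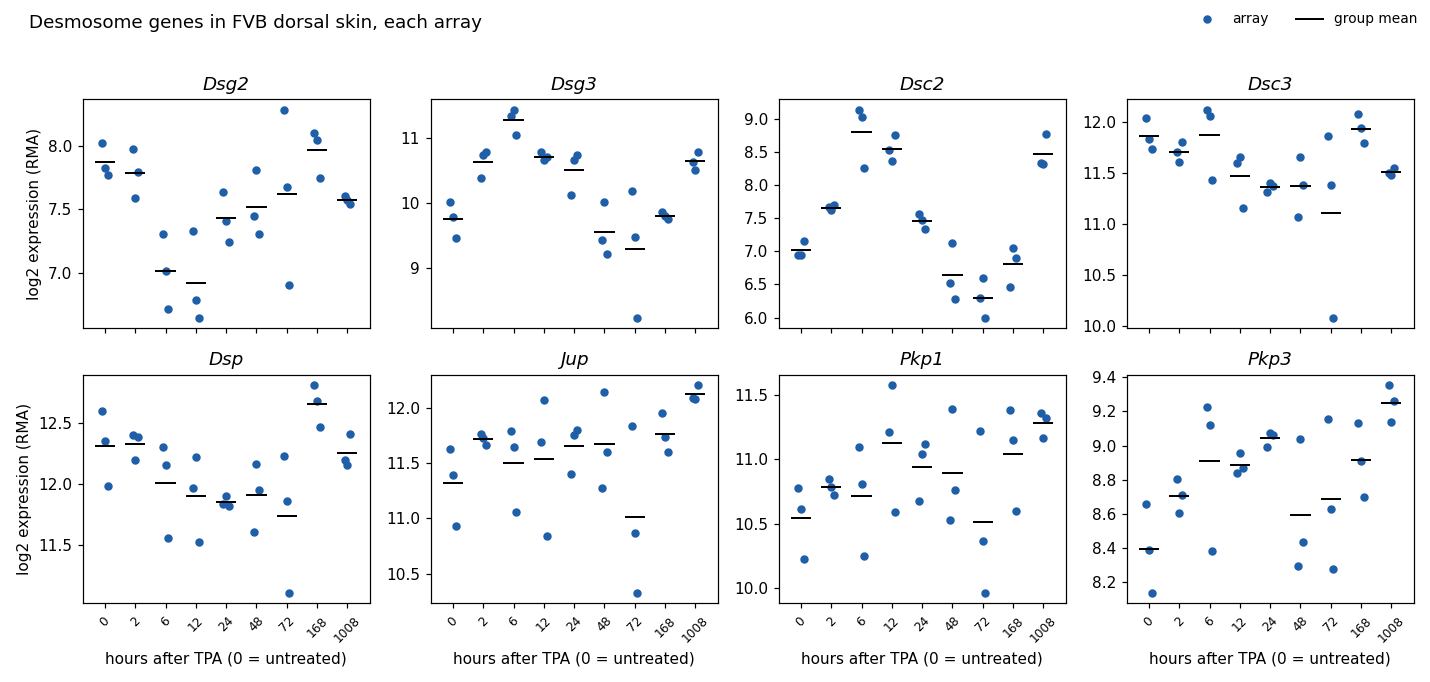
Log2 values of the 8 genes in each FVB array by hours after TPA, with bars for group means. Dsc2 and Dsg3 are highest at 6 h and Dsg2 is lowest at 6 and 12 h, while one 72 h array lies low for most genes.

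Dsc3, the desmocollin paired with Dsg3 in basal cells, was not called at any time in FVB or F1. In FVB skin it averaged 11.87 ± 0.38 at 6 h and 11.36 ± 0.05 at 24 h, against 11.86 ± 0.15 in untreated skin (SD, n = 3 each). The largest FVB difference was -0.75 at 72 h (adjusted p = 0.34), where 1 array, replicate 3, read 10.09. That array had low averaged basal keratinocyte markers (-0.92) and high averaged skeletal muscle markers (3.33). Without the narrow arrays that difference was called (adjusted p = 0.0231). The part of those markers in it was not tested.

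The suprabasal isoforms were represented by the shared Dsg1 probe set, which reads 3 near-identical paralogs together. Its values were 11.16, 10.99 and 9.45 at 6 h in FVB skin, against 11.88, 11.68 and 11.47 in untreated skin. Every 6 h array was below every untreated one, and the difference was -1.14 (adjusted p = 0.0670, over all probe sets). Without 6 h replicate 3, which had high averaged pancreas (3.47) and lymphocyte (1.94) markers, it was -0.60 (adjusted p = 0.46). In F1 skin it was -0.95 at 4 h and -1.04 at 6 h (adjusted p = 0.201 and 0.157), with both arrays at each time below all untreated arrays. Dsg1b, on its own probe set, rose at 12 h in FVB skin, with values of 10.24, 10.30 and 10.24 against 9.58, 9.57 and 8.88 in untreated skin (change 0.91, adjusted p = 0.0361). The F test over times did not call Dsg1b in FVB (adjusted p = 0.154), nor without the narrow arrays (0.0507) or without untreated replicates 2 and 3 (0.326). Whether the Dsg1b probes are free of signal from the paralogs was not tested. Dsg1c, on its own probe set, was low, with FVB group means from 4.065 to 5.146. The F test called Dsg1c in FVB and F1 (adjusted p = 0.0193 and 0.00243), against 50.9% and 26.7% of all genes. Averaged suprabasal keratinocyte markers were 0.01, -0.07 and -0.87 at 6 h, lowest in replicate 3, and ran from -1.12 to -0.56 at 12 h. In FVB untreated skin they ran from -0.03 to 0.18. Of 6 such markers, 1 was called lower at 6 h and 3 at 12 h, against 12.6% and 11% of all genes. Their part in these results was not tested.

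The plaque genes Dsp, Jup and Pkp1 were not called at any time in FVB or F1 skin with all arrays and the probe set of highest mean. Pkp3, a plakophilin found through all epidermal layers, rose at 1008 h in FVB skin, with values of 9.36, 9.14 and 9.26 against 8.66, 8.39 and 8.14 in untreated skin (change 0.86 ± 0.23, 1.81-fold, adjusted p = 0.00706). Leaving out the FVB untreated replicate 3 gave an adjusted p of 0.0503, and without replicates 2 and 3 the change was 0.59 (adjusted p = 0.306). Jup, which encodes plakoglobin, had 12.09, 12.08 and 12.21 at 1008 h, against 11.62, 11.39 and 10.93 (difference 0.81, adjusted p = 0.125). Pkp1, the plakophilin of suprabasal cells, differed by 0.74 at that time (adjusted p = 0.127), and both were called without the narrow arrays (adjusted p = 0.0123 and 0.014). Dsp differed by -0.06 at 1008 h. In F1 skin the 4 plaque genes differed by -0.63 to -0.54 at 4 h and by -0.77 to -0.37 at 6 h, none called. Without the narrow arrays Dsp and Pkp3 were called lower at 4 h and Dsp at 6 h. In that fit 29.7% and 29.3% of all genes were called in either direction at 4 and 6 h in F1. By the second probe set of Dsp, values at 6 h were 8.70 and 7.55 in F1, against 9.95, 9.44, 9.32 and 9.47 in untreated skin. On that probe set Dsp was called lower in F1 skin at 4 h (-1.54, adjusted p = 0.0188) and at 6 h (-1.42, adjusted p = 0.0338), and was not called at any FVB time.

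Promoters of Dsp and Jup, the 2 members found in the RefSeq promoter table (GRCm38.p6), are shown to give their sequence context. Each line holds the 250 bases before the start site, 5′ to 3′ on the gene's strand, with matches to the GC box GGGCGG on either strand in capitals.
Dsp, chr13:38151044-38151293, plus strand: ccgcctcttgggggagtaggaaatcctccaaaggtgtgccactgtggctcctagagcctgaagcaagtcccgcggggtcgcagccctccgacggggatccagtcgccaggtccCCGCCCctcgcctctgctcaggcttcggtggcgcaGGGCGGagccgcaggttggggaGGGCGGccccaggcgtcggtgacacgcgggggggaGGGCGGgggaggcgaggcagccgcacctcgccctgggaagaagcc
Jup, chr11:100397791-100398040, minus strand: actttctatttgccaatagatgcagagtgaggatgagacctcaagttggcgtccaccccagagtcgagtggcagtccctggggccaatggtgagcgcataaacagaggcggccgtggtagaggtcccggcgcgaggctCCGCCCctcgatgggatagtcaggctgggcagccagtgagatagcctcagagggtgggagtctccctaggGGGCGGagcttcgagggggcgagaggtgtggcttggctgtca
Dsp holds 4 GC boxes and Jup 2, and 32.7% of 32851 promoters of the same length hold at least 1. Neither holds the AP-1 motif TGANTCA, which reads the same on both strands and is found in 6.75% of those promoters.

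**Figure D4:**
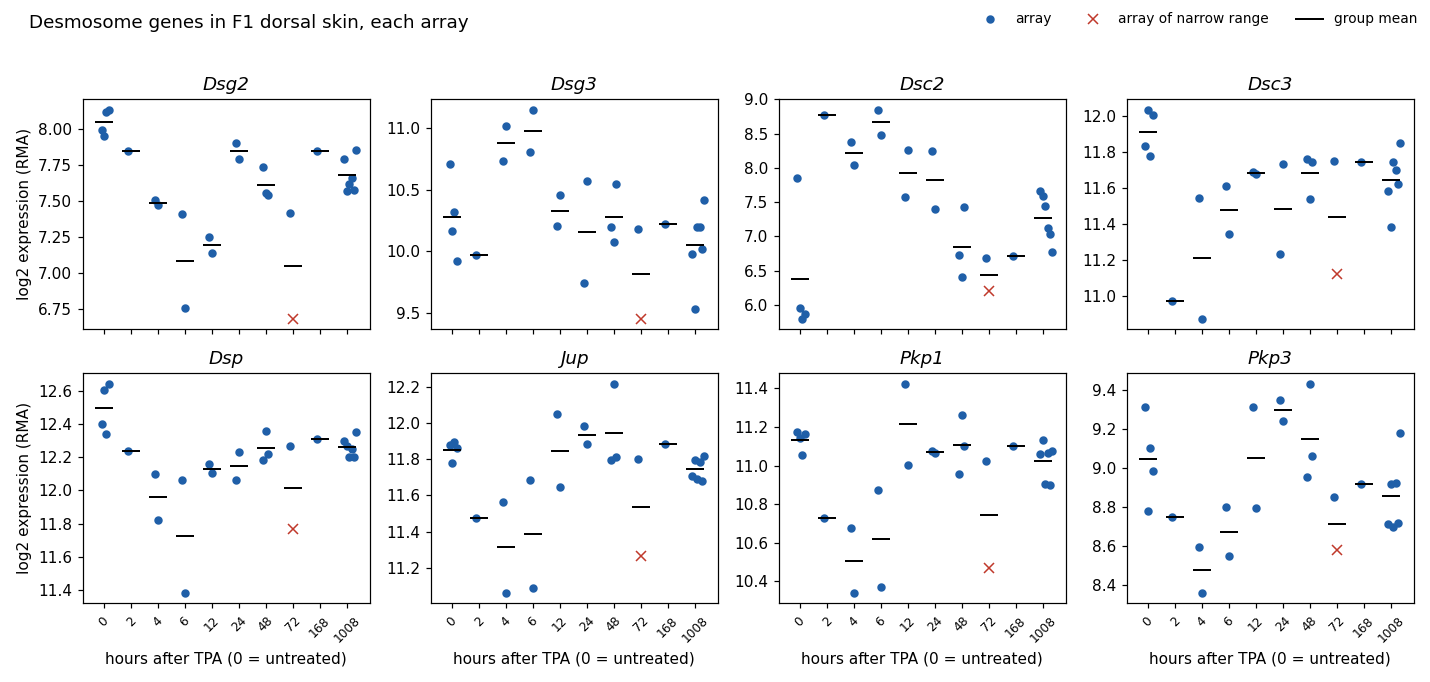
Log2 values of the 8 genes in each F1 array by hours after TPA, with bars for group means and a cross for the narrow 72 h array. Dsc2 is high at 2 to 24 h and 1 untreated array is high for it, while Dsg2 averages lower at 6 and 12 h than in untreated skin.

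In SPR skin at 12 h 6 of 8 genes were called lower, against 23.3% of all genes, and all 6 calls rest on the narrow array. Its values were 5.93 for Dsg2, 6.78 for Dsg3 and 7.59 for Dsc3, whereas the other 12 h array read 7.28, 10.25 and 11.70. Dsp, Jup and Pkp1 were 8.77, 8.62 and 8.27 in the narrow array and 12.17, 11.68 and 11.02 in the other. With all arrays the changes ran from -1.09 for Dsg2 to -2.16 for Dsc3. Without the narrow array no member was called at 12 h, when 1.08% of all genes were, and the differences of these 6 genes ran from -0.41 for Dsg2 to -0.00 for Dsg3. At 4, 24, 48 and 1008 h no member was called in SPR, against 7.43% (4.18% lower), 0.271%, 0.207% and 0% of all genes.

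**Figure D5:**
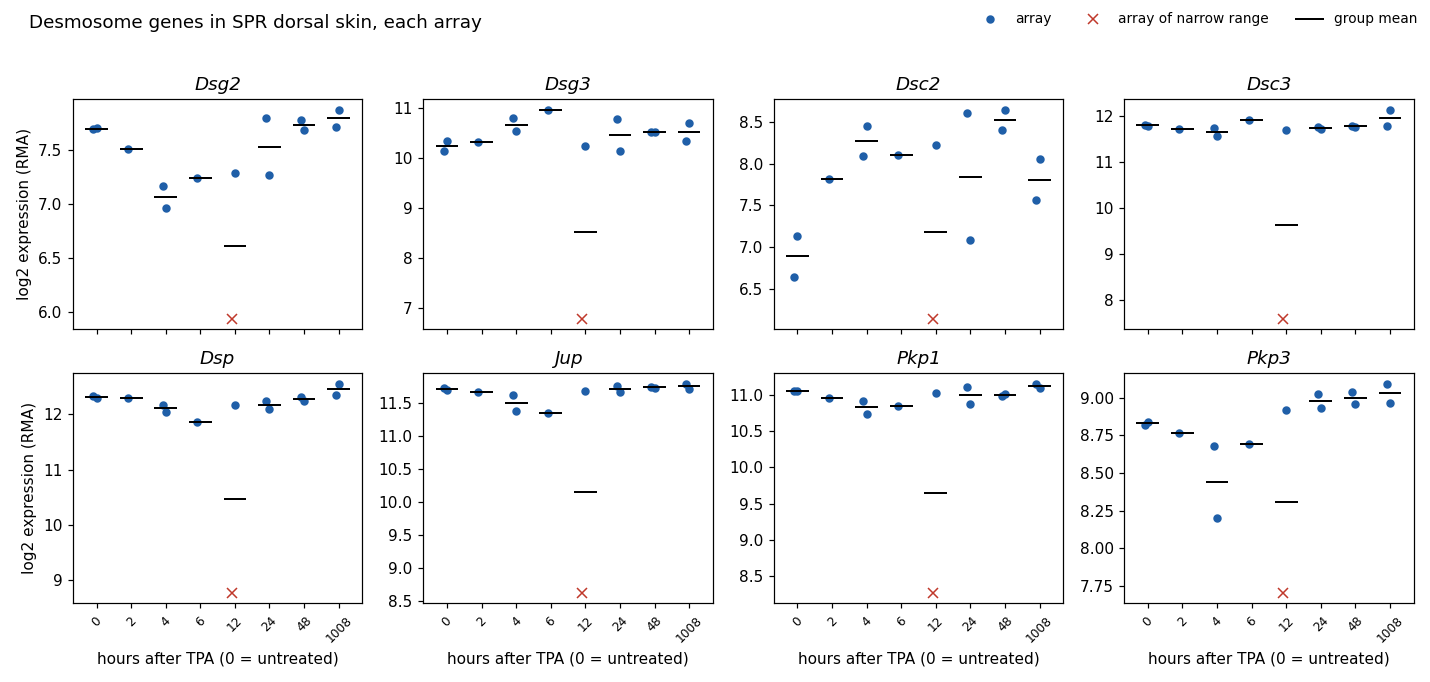
Log2 values of the 8 genes in each SPR array by hours after TPA, with a cross for the narrow 12 h array. Apart from the cross the arrays of Dsc3, Dsp, Jup and Pkp1 lie close together, while Dsc2 is higher at 2 to 48 h than in the 2 untreated arrays for all but the cross and 1 array at 24 h.

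Differences between strains were tested on changes against each strain's own 0 h skin, and comparisons that share a strain share its untreated arrays. For F1 minus FVB no member was called by the F test over times, against 1.88% of all genes. The difference of Dsg3 at 1008 h was -1.17 ± 0.52 (adjusted p = 0.32) and that of Pkp3 -1.05 ± 0.29 (adjusted p = 0.0557). For Pkp3 the change was -0.19 in F1 and 0.86 in FVB. Without the narrow arrays both were called, at adjusted p of 0.0307 and 0.00937. At 1008 h 6.96% of all genes were called for F1 minus FVB in that fit, against 1.52% with all arrays. For SPR minus FVB the F test called 4 of 8 members with all arrays, against 20.5% of all genes, and only Dsc2 without the narrow arrays (adjusted p = 0.0229). At 48 h the Dsc2 change was 1.64 in SPR and -0.37 in FVB, a difference of 2.01 ± 0.62 (adjusted p = 0.251). Averaged hair follicle markers at 48 h ran from 1.17 to 1.63 in SPR, against -0.29 to -0.18 in its untreated skin, and from -0.79 to -0.59 in FVB. Their part in the difference was not tested. For SPR minus F1, 0.0106% of all genes and no member were called. Between untreated SPR and F1 skin no member was called, against 0.266% of all genes, and Dsc2 differed by 0.40 ± 0.43.

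Among 9 other desmosome genes, Dsg4, the desmoglein of the hair shaft, rose most. At 1008 h in FVB skin it was 4.91 ± 0.73 log2 higher than in untreated skin, 30-fold (adjusted p = 3.81e-06). The hair shaft and inner root sheath keratins moved with it: Krt27 by 7.66, Krt71 by 7.35 and Krt35 by 3.99. The averaged hair follicle markers ran from 2.61 to 2.84 at that time, against -0.30 to -0.01 in untreated skin. Of these markers 5 of 8 were called higher, against 8.17% of all genes. Their part in the Dsg4 result was not tested. In F1 skin at 1008 h Dsg4 differed by 0.50 (adjusted p = 0.96), and the difference from FVB was -4.41 ± 0.93 (adjusted p = 0.00565). The F1 untreated arrays were wide apart for Dsg4, with a median of 3.66 and a highest value of 7.99. At 1008 h the F1 median was 4.97 and the values ran from 4.10 to 6.53. Cdsn, which encodes corneodesmosin, the protein that cements corneocytes, rose in FVB skin by 1.14 at 6 h and 1.17 at 12 h (adjusted p = 0.014 and 0.0128), and was also called higher at 48 and 1008 h. The F test over times did not call Cdsn in FVB (adjusted p = 0.065). Its F test adjusted p was 0.616 without FVB untreated replicates 2 and 3 and 0.000267 without the narrow arrays. Pkp4, a plakophilin-like armadillo gene, fell by 1.20 at 48 h in FVB skin (adjusted p = 0.00283) and rose by 0.91 at 4 h in F1 skin (adjusted p = 0.0167). Pkp2, chosen after its values were seen, fell at 24, 48, 72 and 168 h in FVB skin by 0.71, 0.93, 0.90 and 1.02 (adjusted p = 0.0261, 0.00454, 0.0188 and 0.0174). Without FVB untreated replicates 2 and 3 none of these was called, and the F test over times gave an adjusted p of 0.0804, against 0.00367 with all arrays.

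The neighbouring junctions gave a setting for these changes. Of 10 measured adherens junction genes, 3 rose and 0 fell at 6 h in FVB, against 12.1% and 12.6% of all genes, and their median change was 0.45, against -0.01 over all genes. Cdh3, P-cadherin of basal and matrix cells, rose by 1.20 at 6 h in FVB (adjusted p = 0.00037) and by 1.15 at 6 h in F1 (adjusted p = 0.0016). Nectin1, a junction adhesion molecule, rose by 1.06 and 1.00 at 2 and 6 h in FVB. Of 8 measured hemidesmosome genes, 2 fell and 0 rose at 12 h in FVB, when 11% of all genes were called lower, with a median of -0.19, against 0.01 over all genes. They were Dst, which encodes the plaque protein that binds keratin, by 1.24, and Lama3, a laminin-332 chain, by 1.07 (adjusted p = 0.00175 and 0.00835). Itga6, an integrin chain of the hemidesmosome, rose by 1.04 at 6 h in FVB (adjusted p = 0.025).

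Keratins that attach to desmosomes had larger changes. Of 11, 4 rose and 3 fell at 12 h in FVB, against 11.6% and 11% of all genes, with a median of 0.30, against 0.01 over all genes. Krt16 and Krt6b, keratins of activated epidermis, rose by 4.83 each at 12 h in FVB and by 5.67 and 5.29 in F1, and Krt77 fell by 3.23 at 1008 h in FVB. A list of 16 genes was drawn up for proteases of desmosome cleavage and their inhibitors, and their action on desmosomes was not tested. Of these, 7 rose and 0 fell at 12 h in FVB, when 11.6% of all genes were called higher. Their median change was 0.77, against 0.01 over all genes. Klk6, a kallikrein, rose by 3.44 at 12 h in FVB and by 3.77 in F1, and Klk14, a kallikrein of desquamation, rose by 3.77 at 1008 h in FVB. Mmp13, a collagenase, rose by 5.09 at 12 h in FVB and by 5.08 in F1. Of 15 regulators, 3 rose and 2 fell at 2 h in FVB, against 6.52% and 7.86% of all genes, with a median of 0.10, against 0.02 over all genes. Grhl3 (1.33) and Cebpb (1.41) were among those that rose, while Snai2, a repressor of cadherin genes, fell by 1.69. Of 13 terminal differentiation genes, 2 rose and 4 fell at 12 h in FVB, against 11.6% and 11% of all genes (median -0.16, against 0.01), with Tgm3 up by 1.75 and Krt10, the main suprabasal keratin, down by 2.39. Neutrophil markers rose in the same skin, 4 of 5 at 12 h.

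Likeness was described by Pearson r over 27 group means centred within strain, and over 25 without the 2 groups that hold a narrow array. The genes share these arrays, so their correlations are not independent. Jup and Pkp1 were alike in both (Pearson r = 0.95 and 0.89). Dsg3 and Dsc2 were alike at r = 0.65 and 0.71, whereas Dsg2 and Dsg3 stood at -0.03 and -0.61. Outside the members, Dsp was most like Ctnnd1, which encodes p120-catenin (r = 0.97 and 0.92), and Trim29 (r = 0.96 and 0.90). Pkp3 was most like Evpl, which encodes envoplakin (r = 0.90 in both). Dsg3 was most like Rrp1 (r = 0.93 and 0.90). For the other members the first gene changed with the groups used. Over 27 groups Dsg2 was most like Itpkb (r = 0.93) and Dsc2 most like Ctps (r = 0.91), and over 25 they were most like Cd109 (r = 0.94) and Basp1 (r = 0.91). Jup was most like Eif4ebp2 and Pkp1 most like Klf4 over 27 groups (r = 0.91 each), and both were most like Evpl over 25 (r = 0.85 each). Dsc3 was most like Ccny over 27 groups (r = 0.92), which ranked 23 over 25 groups (r = 0.74), where Med23 was first (r = 0.83).

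Arrays that were alone in their group gave values only. In F1 skin at 2 h, Dsc2 was 8.78, against an untreated mean of 6.37, and Dsc3 was 10.97, against 11.91. That array had averaged hair follicle markers of 2.03 and skeletal muscle markers of 3.12. In SPR skin at 2 and 6 h Dsc2 was 7.82 and 8.11, against an untreated mean of 6.89, and Dsg2 was 7.51 and 7.24, against 7.70. In F1 skin at 168 h Dsc2 was 6.71 and Dsg2 7.84, against 6.37 and 8.05 in untreated skin.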

How the data were processed

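Expression was measured on 69 Affymetrix arrays of dorsal skin. The deposited values are log2 expression for 35556 probe sets, and RMA is the tool named, without a version, per the submitters' processing notes. RMA corrects background, normalises arrays and summarises probes, and how batches were treated and the genome build are not given in the sources used here. Groups came from the labels' strain and hours, and 3 arrays whose strain the labels do not give entered no comparison. In the platform's annotation, 21218 probe sets carried 1 symbol, 1881 several and 12457 none. One probe set per gene, that of highest mean, stood for each of 18820 genes.

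With limma 3.58.1 under R 4.3.3, lmFit and eBayes were run on 27 group means and a batch 3 against batch 2 term, with 38 residual degrees of freedom, and moderated F tests over times. The number of arrays limits the precision. The fit was tested on simulated data. The 10 members, the gene lists and the tests were chosen with earlier results of these data known. All members were named, and for each list up to 3 called members with the largest FVB change, with the 5 most alike genes per member ranked by Pearson r of group means centred within strain. Deviations from group means in same-numbered 0 h and treated arrays correlated over 0.1 in 9 of 24 FVB, 3 of 17 F1 and 4 of 10 SPR pairs. SPR replicates 1 and 2 gave the same value at each time, since 2 arrays deviate equally from their mean. Arrays of different number were not compared, so this check cannot decide pairing by number, and the main fit did not use it. Alternatives tried were median centring, cyclic loess, each strain fitted alone, each batch alone, a replicate block, no batch term, the other probe set, a fold threshold, and leaving out the narrow arrays, the FVB untreated replicates 2 and 3, 3 FVB arrays that stand apart, and each array in turn.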

Additional observations from a re-analysis of the deposited data

Results flagged for a closer look

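Several values of these genes stood out. Dsc2 in F1 untreated replicate 1 was 7.858, against 5.95 in the next highest of 4 arrays, a gap of 1.91 that is 0.925 of the group's range. The same array had averaged hair follicle markers of 1.83, against -0.47 to -0.22 in the other 3, and their part in the value was not tested. The 16 tests were of the 8 genes in F1 untreated and F1 1008 h skin, with 4 and 6 arrays. These tests share arrays and are not independent, and chance would single out about 1 in 20.

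The change at 12 h differed between SPR and FVB for Dsg3 by -2.70, for Jup by -1.783, for Pkp1 by -1.993 and for Pkp3 by -1.013 (SPR minus FVB). With all arrays 18.7% of all genes were called in this comparison, and 14.7% were called lower. Each difference rests on the narrow SPR array, without which none was called. By the F test of SPR minus FVB changes the adjusted p was 0.00679 for Dsc2, 0.0359 for Dsc3, 0.00886 for Dsg3 and 0.0415 for Pkp1, and without the narrow arrays Dsc2 alone stayed called, at 0.0229.

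In an array of unknown strain labelled 6 h, Dsc2 was 8.562, above the 7.858 that was the highest of the 9 untreated arrays.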

How the results depend on the processing

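The number of called gene-time pairs depended on the 2 narrow arrays, on the scaling and on the FVB untreated replicates. FVB higher calls were 5, and became 12 with cyclic loess, 8 with each strain fitted alone, 13 without the narrow arrays and 1 without FVB untreated replicates 2 and 3. FVB lower calls were 2, and became 0 with a fold threshold of 1, 12 with loess, 4 without the narrow arrays and 1 without those controls, and 1 to 2 when single arrays were left out. F1 higher calls were 4, and became 2 with a replicate block, 0 in batch 2 alone and 7 in batch 3 alone, and 2 to 5 when single arrays were left out. F1 lower calls were 3, and became 1 with the fold threshold, 1 with median centring, 12 with loess, 5 with the other probe set, 11 with each strain alone, 0 in batch 2, 11 in batch 3, 7 without the narrow arrays, and 1 to 3 by leaving out single arrays. SPR higher calls were 0, and became 1 with median centring, 1 with loess, 1 without the narrow arrays and 0 to 1 by leaving out arrays. SPR lower calls were 6, and became 0 with loess, 0 with each strain alone, 0 in batch 2, 0 without the narrow arrays, and 0 to 7 by leaving out arrays. By the F test over times FVB called 3 genes, 8 with loess and 8 without the narrow arrays. F1 called 2, 1 with median centring, 7 with loess, 5 with each strain alone, 0 in batch 2, 8 in batch 3, and 1 to 2 by leaving out arrays. SPR called 7, 0 with loess, 0 alone, 0 in batch 2, 0 without the narrow arrays, and 0 to 8 by leaving out arrays. With all arrays the F tests over times called 50.9%, 26.7% and 35.3% of all genes in FVB, F1 and SPR. Shares of all genes under loess, with strains fitted alone and in single batches are not given, so those counts describe the members only. The same holds for the F tests without the narrow arrays. For strain differences, F1 minus FVB called 0, 2 with loess and 1 without the narrow arrays. SPR minus FVB called 4, 2 with median centring, 2 with loess, 1 without the narrow arrays, 2 without those controls, and 1 to 8 by leaving out arrays. SPR minus F1 called 0, and 0 to 8 by leaving out arrays. With all arrays these F tests of strain differences called, in the order given, 1.88%, 20.5% and 0.0106% of all genes. Under cyclic loess the SPR 12 h changes turned positive for Dsp (0.149), Jup (0.275) and Pkp1 (0.219). Centring each array on its median moved the median change of all genes by -0.175 to 0.177 log2 over the comparisons, the highest at 2 h in FVB. Group sizes of 2 or 3 arrays limit what could be detected. The cause of these shifts was not tested.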

Other observations

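The labels put 3 arrays in no strain. In the first, labelled 2 h, Dsc2 was 7.24 and Dsg2 7.42. In the second, labelled 6 h, Dsg3 was 10.37, Dsg2 6.65 and Dsp 11.40. In the third, for which the labels give no time, Dsc2 was 7.67, Dsg3 9.99 and Dsg2 7.29.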
